A study of Mus musculus with 12 samples.

Results

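The polyamine genes examined here were 9 genes chosen by name, Odc1, Srm, Sms, Amd1, Sat1, Azin1, Oaz1, Oaz2 and Smox, which encode the enzymes that make and break down polyamines and the proteins that control the first of those enzymes. All 9 were among the 21671 genes of the deposited table, and 8 of them, all but Smox, were among the 9745 genes that reached 1 RPKM (reads divided by the length of the gene and by the total of the library) in at least 3 libraries and were tested. The cells were FLMycER cells, FL5.12 cells of BALB/c mice (a murine B-cell progenitor line) that carried MycER, a fusion of Myc to a hormone-binding domain that responds to 4-hydroxytamoxifen (OHT). MycER was expressed constitutively from a retrovirus in pools of resistant cells, so that every group, the untreated one included, contained the protein and only its activation by OHT differed. RNA was taken from 4 groups of 3 libraries.

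The first group was untreated. The second (OHT) was grown for 72 h with 100 nM OHT. The third (IACS) received 135 nM IACS-010759, an inhibitor of complex I of the electron transport chain, for 24 h. The fourth (OHT_IACS) had 48 h of OHT before 24 h with IACS-010759 at the same dose. The labels do not say outright that OHT stayed in the medium during those 24 h. The study's methods describe 3 biological replicates per condition. They also state that, ahead of experiments with IACS-010759, cells were moved to medium with less glucose than their regular medium. The library totals by which the RPKM had been divided ran from 10376530 to 14550158 reads, and reads on genes from 4199265 to 5762338. OHT replicates 1 and 3 had the smallest totals, at 0.776 and 0.805 times that of untreated replicate 1, and OHT replicate 2 had 1.04 times that total. Between IACS replicates 1 and 2 the difference in reads on 10541 genes could not be told apart from sampling noise (chi-square test, p = 0.0848), unlike every other pair of replicates. The chi-square per gene was 1.019, under the upper 95% limit of 1.023 for sampling noise. The test does not show that these libraries are 1 sample. As a precaution they were counted as 1 sample in every mean ± SD of the IACS group (n = 2). The tests kept all 12 libraries, as did every share of all genes set beside a count. For the polyamine genes and a wider list, the number called in each pairwise comparison is also given with that pair as 1 sample.

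As a check of the labels, Myc fell with OHT (−0.81 on the log2 scale, limma, adjusted p = 1.7e-07), and whether reads of the transgene count towards it was not tested. Trib3 and Ddit3, genes of the integrated stress response, rose with IACS-010759 by 1.96 and 1.17. Both also rose with OHT alone, by 0.68 and 0.22 (adjusted p = 0.00024 and 0.019, limma). Myc rose with IACS-010759 by 0.34 (adjusted p = 0.00099, limma), so each of these genes responded to both agents. Of 18 markers of B-lineage progenitors, 5 reached 1 RPKM in any library (Cd79a, Cd79b, Ptprc, Csf2rb and Il3ra) and 7 were at 0 throughout, the defining Pax5 among them. Gata1, an erythroid regulator, stood at 26.0 to 32.9 RPKM, and the cells are called FLMycER cells here without a further cell type name. The summed level of the B-lineage markers was 69.3 to 71.9 RPKM in untreated, 69.2 to 73.5 in OHT, 71.5 to 72.5 in IACS and 74.9 to 77.6 in OHT_IACS libraries.

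Polyamines (putrescine, spermidine and spermine) are small organic cations that bind RNA and are needed for growth and translation. Ornithine decarboxylase, the product of Odc1, makes putrescine, and the synthases Srm and Sms extend it to spermidine and then spermine with aminopropyl groups from S-adenosylmethionine that Amd1 has decarboxylated. Antizymes (Oaz1, Oaz2) bind ornithine decarboxylase, send it to the proteasome and hold back polyamine uptake, the antizyme inhibitor Azin1 takes antizyme away again, Sat1 acetylates spermidine and spermine for export or oxidation, and Smox oxidises spermine. Odc1 is a textbook target gene of MYC.

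Antizyme is made only when ribosomes shift frame at the end of a short first reading frame, a step that polyamines favour. The sites are shown because the results turn on Oaz2, and because it shares this control with Oaz1, whose RNA did not follow it. In GENCODE vM21 (GRCm38) the coding transcripts of both genes skip a single base there, and the runs of 27 bases around it, read from transcripts that keep that base, are given with the stop codon of the first frame in capitals. The Oaz1 run lies at chr10:80828283-80828309 and the Oaz2 run at chr9:65686260-65686286, both on the plus strand and in coding sequence.
Oaz1: cggtggtgctccTGAtgtccctcaccc
Oaz2: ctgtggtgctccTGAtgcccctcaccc
The runs were identical at 25 of 27 bases.

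Promoters (250 bases before to 50 after the start, RefSeq, GRCm38.p6) were given for 7 of the 9 genes, with 2 starts for Sms, and were not given for Srm and Azin1. They were searched on both strands for CACGTG, the E-box that MYC binds with MAX, and for TGATGNAA, the core of the element bound by C/EBP-ATF factors such as ATF4. Of 32851 promoters, 7.15% held the first motif and 3.97% the second. Among the 7 polyamine genes searched only the upstream start of Sms held CACGTG, and none held TGATGNAA. Sequence outside this window, introns included, was not searched, so a gene without a match here may hold one elsewhere. The 250 bases before that start, at chrX:157492288-157492537 on the minus strand, are shown with the E-box, which begins at position −196 from the start, in capitals. They show a single match in a long window and no occupancy, since no binding was measured.
Sms: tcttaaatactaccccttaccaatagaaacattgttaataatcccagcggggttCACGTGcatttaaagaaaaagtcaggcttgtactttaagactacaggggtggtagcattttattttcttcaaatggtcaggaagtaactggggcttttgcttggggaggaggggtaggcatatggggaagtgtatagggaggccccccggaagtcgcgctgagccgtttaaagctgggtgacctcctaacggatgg

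In untreated cells, where levels are compared per length as RPKM, Odc1 stood highest at 64.9 ± 2.38 (SD, n = 3) and Srm next at 59.0 ± 0.190. Amd1 followed at 46.1 ± 1.70 and Oaz1 at 33.2 ± 1.14. Azin1 (24.5 ± 0.978), Oaz2 (23.5 ± 0.543) and Sms (22.5 ± 0.700) overlapped from each neighbour to the next and could not be ordered. By the lengths used for the RPKM, Sat1 was lowest of the 8 at 17.3 ± 0.524. Smox, the spermine oxidase, had at most 2 reads in any library, under the floor of 3 reads, so neither its expression nor a difference was detectable at this depth.

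The same order held at the top in the other conditions, with Odc1 at 77.7 ± 8.25 RPKM in OHT, 72.8 ± 4.50 in IACS (n = 2) and 74.5 ± 0.954 in OHT_IACS. Srm stood at 73.9 ± 5.47, 64.6 ± 1.05 and 70.3 ± 1.49 in these groups, and in OHT its libraries overlapped those of Odc1. Sms and Azin1 overlapped in OHT (25.9 ± 1.54 and 25.4 ± 1.23) and in OHT_IACS (24.0 ± 0.183 and 24.5 ± 0.702). Sat1 and Oaz2, by these RPKM the lowest of the tested genes in every condition but the untreated one, overlapped in OHT (16.1 ± 1.94 and 18.3 ± 0.696). They did not overlap in OHT_IACS (14.4 ± 1.62 and 16.7 ± 0.405). The place of Oaz1 depends on the length used: the length in the table was 2558 bases, whereas its longest coding transcript in GENCODE has 1071. Per coding length its mean over the 12 libraries would be 84.3 RPKM and not 35.3, beside 83.3 and 72.2 for Odc1. The place of Sat1 depends on it too, with 1595 bases against 1162 in its longest coding transcript. Per coding length the Sat1 mean would be 22.1 RPKM and not 16.1, beside 21.4 for Sms and 19.6 for Oaz2. RefSeq lists pseudogenes of Amd1 and Oaz1 and a near copy of Amd1, Amd2, not analysed here, so reads that these sequences share are uncertain.

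**Figure D1:**
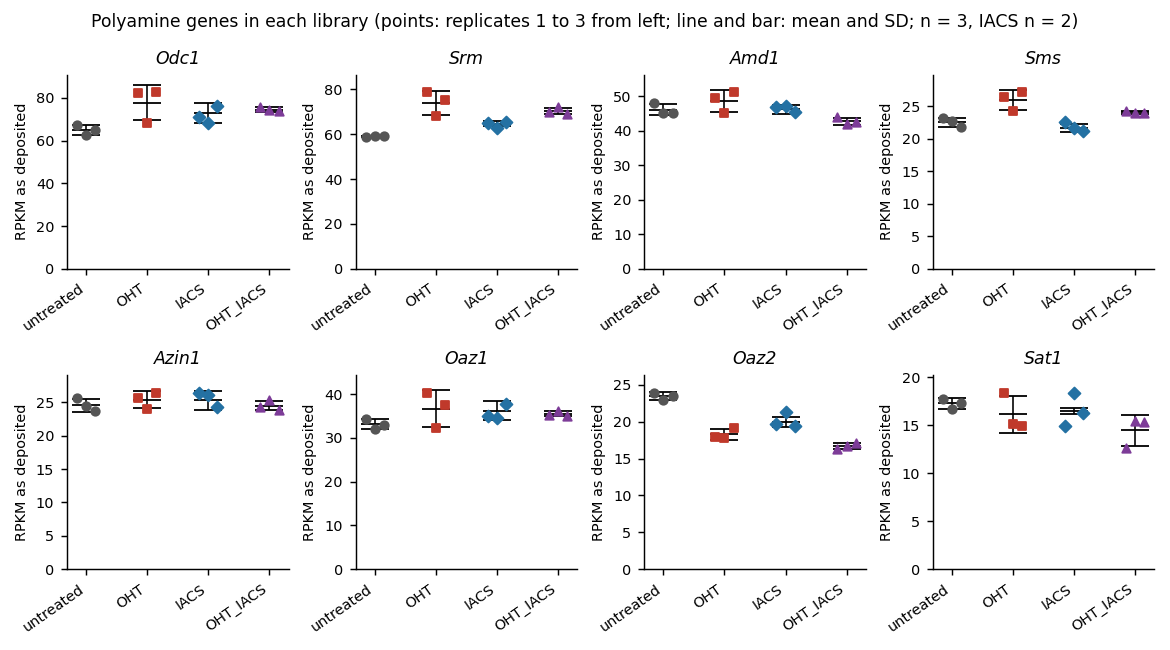
RPKM as deposited (vertical axis, from 0) of the 8 tested polyamine genes in each of the 12 libraries by group, with points for replicates 1 to 3 from left to right and a line and bar for the mean and SD (n = 3, or n = 2 for IACS, where replicates 1 and 2 count as 1 sample). The untreated Oaz2 libraries, 22.9 to 24.0, lie above every other Oaz2 library, and OHT replicate 2 lies under OHT replicates 1 and 3 for Odc1, Srm, Sms, Amd1, Azin1 and Oaz1.

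The first comparison asked what MycER activation alone did. After OHT for 72 h the RNA of the biosynthetic enzymes Odc1, Srm and Sms was called higher, by 0.18 to 0.30 on the log2 scale. That of the antizyme Oaz2 was lower by 0.38. Over 22 other settings the call was lost in 15 for Odc1 and in 5 for Sms, and in none for Srm and Oaz2. With the library total as a covariate the Srm rise was still called, and those of Odc1 and Sms were not. Changes of Amd1, Azin1, Oaz1 and Sat1 did not pass the test. Of the 8 genes tested, 4 were called at an adjusted p under 0.05 (limma on log2(RPKM + 0.1), Benjamini-Hochberg over all 9745 genes), beside 36.4% of all genes tested. By direction, 3 rose, beside 18.2% of all genes, and 1 fell, beside 18.2%. With IACS replicates 1 and 2 as 1 sample, 3 were called. The median log2 fold change of the 8 genes was 0.08, against 0.01 for all genes tested.

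Srm, the spermidine synthase, read 58.9, 59.3 and 59.0 RPKM in untreated replicates 1 to 3 and 78.7, 67.9 and 75.1 in OHT replicates 1 to 3. All 3 OHT libraries stood above all 3 untreated ones, and the spread within OHT was far wider than the spread within untreated. The log2 fold change was 0.30 (95% interval 0.15 to 0.45, adjusted p = 0.0043, limma). With library totals (log2) as a covariate it was 0.17 (adjusted p = 0.0088, limma), and with OHT replicate 2 as the only OHT library it was 0.16 (adjusted p = 0.077, limma).

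Sms, the spermine synthase, read 23.2, 22.7 and 21.8 RPKM in untreated and 26.4, 24.2 and 27.1 in OHT libraries. The groups did not overlap, and OHT replicate 2 again lay nearest to the untreated libraries. Sms rose by 0.18 on the log2 scale (95% interval 0.06 to 0.29, adjusted p = 0.020, limma). It was 0.08 (adjusted p = 0.27, limma) with the library total as a covariate and 0.06 (adjusted p = 0.52, limma) with OHT replicate 2 alone.

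Odc1, the entry enzyme of the pathway, read 67.1, 62.4 and 65.1 RPKM in untreated and 82.3, 68.2 and 82.6 in OHT libraries. All OHT values were higher as deposited, that of OHT replicate 2 only slightly, and the groups overlapped once the libraries were scaled by their median ratio. Odc1 rose by 0.23 on the log2 scale (95% interval 0.05 to 0.42, adjusted p = 0.049, limma). The call was lost with IACS replicates 1 and 2 as 1 sample (adjusted p = 0.058, limma) and in 15 of 22 other settings. It was 0.02 (adjusted p = 0.61, limma) with the library total as a covariate and to 0.03 (adjusted p = 0.84, limma) with OHT replicate 2 alone.

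The reason to set these values beside the library totals was that abundant genes gained fewer reads in deeper libraries than in proportion. Odc1 had 2156 to 2423 reads in the 12 libraries, a span of 1.12 times, while the totals spanned 1.402 times. Within conditions, the log2 reads of Odc1 and Oaz1 followed the log2 library total with a slope of 0.38 each, where 1 is proportional. The slope was 0.66 for Srm, 0.80 for Sms, 0.77 for Amd1, 0.80 for Sat1, 0.90 for Azin1 and 1.00 for Oaz2. Over all genes the median slope fell from 1.39 under 0.1 reads per base to 0.18 over 1 read per base, and Odc1 and Srm, at 0.90 and 0.83 reads per base, were the most densely covered of the 8 genes by the lengths in the table. Per coding transcript Oaz1 had 1.05 reads per base, beside 1.04 for Odc1 and 0.83 for Srm. What gave rise to this dependence was not tested.

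**Figure D2:**
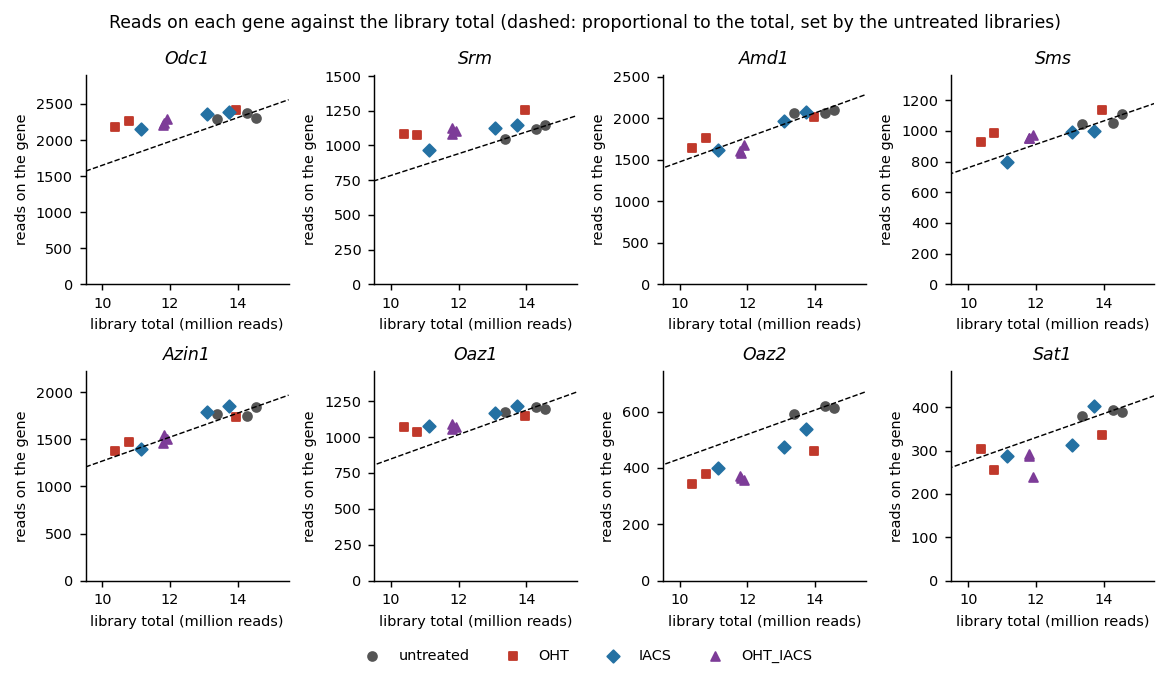
Reads recovered on each of the 8 tested polyamine genes (vertical axis, from 0) against the library total (horizontal axis), 1 point per library, coloured by group, with a dashed line for reads in proportion to the total at the untreated level. Odc1 stays between 2156 and 2423 reads at every total, whereas Oaz2 lies under the line in all 9 treated libraries.

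Oaz2, an antizyme, read 24.0, 22.9 and 23.5 RPKM in untreated and 17.9, 17.8 and 19.1 in OHT libraries. The groups lay well apart, and here OHT replicate 2 did not stand out from the other OHT libraries. The log2 fold change was −0.38 (95% interval −0.48 to −0.28, adjusted p = 3.6e-05, limma). The fall was called in all 22 other settings (scaling, filter, pseudocount, model or a library left out), with log2 fold changes from −0.42 to −0.35.

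The remaining genes differed by less than the test could call. Oaz1, the major antizyme, read 34.4, 32.1 and 33.0 RPKM in untreated and 40.4, 32.2 and 37.5 in OHT libraries, which overlapped. Its log2 fold change of 0.12 (95% interval −0.06 to 0.29, adjusted p = 0.28, limma) turned to −0.09 (adjusted p = 0.16, limma) with the library total as a covariate. Amd1, the S-adenosylmethionine decarboxylase, gave 0.05 (95% interval −0.08 to 0.18) and turned to −0.05 with that covariate, and Azin1 gave 0.03 (−0.08 to 0.14) and turned to −0.04. Sat1, the acetyltransferase, read 17.8, 16.7 and 17.3 RPKM in untreated and 18.4, 15.1 and 14.9 in OHT libraries, with a log2 fold change of −0.12 (95% interval −0.35 to 0.10, adjusted p = 0.36, limma).

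The second comparison asked what complex I inhibition did in nonprimed cells. Oaz2 was lower after 24 h of IACS-010759, and no other polyamine gene passed the test. That is 1 of 8 genes called (limma), beside 15.9% of all genes tested, with 1 that fell, beside 7.74%, and 0 that rose, beside 8.15%. The count was also 1 with IACS replicates 1 and 2 as 1 sample. The median log2 fold change of the 8 genes was 0.0076, against 0.0038 for all genes.

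Oaz2 read 19.7, 21.3 and 19.5 RPKM in IACS replicates 1 to 3, all under the lowest untreated value of 22.9. Its log2 fold change was −0.25 (95% interval −0.35 to −0.15, adjusted p = 0.0031, limma). It was −0.25 (adjusted p = 0.0080, limma) with IACS replicates 1 and 2 as 1 sample and was called in all 22 other settings.

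Srm read 64.8, 62.9 and 65.3 RPKM with IACS, above the 3 untreated libraries in each case, with a log2 fold change of 0.10 (95% interval −0.05 to 0.24, adjusted p = 0.38, limma). Odc1 read 71.0, 68.3 and 76.0, also above the untreated libraries as deposited, with a log2 fold change of 0.12 (95% interval −0.07 to 0.30, adjusted p = 0.39, limma). With the library total as a covariate these became 0.02 for Srm and −0.0030 for Odc1. IACS replicate 3, whose total was 0.832 of that of untreated replicate 1, gave the highest value of both genes.

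Among the other genes, Sms read 22.6, 21.6 and 21.2 RPKM with IACS (log2 fold change −0.08, 95% interval −0.19 to 0.04), overlapping the untreated libraries. The intervals were −0.15 to 0.11 for Amd1, −0.08 to 0.14 for Azin1, −0.10 to 0.26 for Oaz1 and −0.32 to 0.13 for Sat1. For Amd1 and Azin1 a change of more than 0.15 in size on the log2 scale is outside the interval, whereas the interval of Sat1, which had 239 to 403 reads per library, was wider.

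The third comparison addressed complex I inhibition in OHT-primed cells. Amd1 was lower in OHT_IACS than in OHT, and Oaz2 was lower in all libraries without passing the test. The test called 1 of 8 genes (limma), beside 23.7% of all genes tested, and it was a fall, beside 11.8% of all genes lower and 11.9% higher. With IACS replicates 1 and 2 as 1 sample none was called (limma), with 2 at an unadjusted p under 0.05. The median log2 fold change of the 8 genes was −0.09, against −0.01 for all genes. All 8 log2 fold changes were below 0, and with OHT replicate 2 as the only OHT library those of Odc1, Srm, Sms, Azin1 and Oaz1 were above 0.

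Amd1 read 49.5, 45.0 and 51.1 RPKM in OHT and 43.9, 41.8 and 42.4 in OHT_IACS libraries. Every OHT_IACS value lay under every OHT value, with OHT replicate 2 nearest. For Amd1 this was a log2 fold change of −0.18 (95% interval −0.31 to −0.05, adjusted p = 0.045, limma). The call was lost with IACS replicates 1 and 2 as 1 sample (adjusted p = 0.058, limma), in 12 of 22 other settings, and with OHT replicate 2 alone (−0.05, adjusted p = 0.61, limma), and it was kept with the library total as a covariate (−0.17, adjusted p = 0.0066, limma).

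Oaz2 read 16.3, 16.7 and 17.1 RPKM in OHT_IACS, under the 17.8 to 19.1 of the OHT libraries. The log2 fold change was −0.13 (95% interval −0.23 to −0.03, adjusted p = 0.055, limma). The values of the other genes overlapped between these groups. Sms gave −0.11 (95% interval −0.22 to 0.0088), Sat1 −0.16 (−0.38 to 0.06), Srm −0.07 (−0.22 to 0.08) and Odc1 −0.05 (−0.24 to 0.13).

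The fourth comparison, OHT_IACS against IACS, gave MycER activation under complex I inhibition and shared no library with the first. Oaz2 was lower with OHT here too. Without passing the test, Srm and Sms were higher in all 3 libraries and Amd1 was lower in all 3. Azin1 was lower in all 3 once the libraries were scaled, and overlapped as deposited. The share of all genes whose libraries separate in this way was not counted in any comparison. The test called 1 of 8 genes (limma), beside 26.5% of all genes tested, and it was a fall, beside 14.2% of all genes lower and 12.3% higher. The count was also 1 with IACS replicates 1 and 2 as 1 sample. The median log2 fold change of the 8 genes was −0.03, against −0.0032 for all genes.

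Oaz2 stood at 16.3 to 17.1 RPKM in OHT_IACS and at 19.5 to 21.3 in IACS libraries, again without overlap. The log2 fold change was −0.26 (95% interval −0.36 to −0.16, adjusted p = 0.00096, limma), and −0.26 (adjusted p = 0.0029, limma) with IACS replicates 1 and 2 as 1 sample. The call held in all 22 other settings. The antizyme thus stood lowest where both agents were present and highest where neither was, at 23.5 ± 0.543 RPKM in untreated, 19.97 ± 0.687 in IACS (n = 2), 18.3 ± 0.696 in OHT and 16.7 ± 0.405 in OHT_IACS.

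Sms read 24.2, 23.9 and 24.0 RPKM in OHT_IACS, above the 21.2 to 22.6 of IACS, with a log2 fold change of 0.15 (95% interval 0.03 to 0.26, adjusted p = 0.057, limma). Srm read 69.8, 72.0 and 69.2, above the 62.9 to 65.3 of IACS, with a log2 fold change of 0.13 (95% interval −0.01 to 0.28, adjusted p = 0.17, limma). The Sms difference was called in 7 of 22 other settings, limma voom and the replicate block (adjusted p = 0.047, limma) among them. The Srm difference was called in 2 of 22, with the library total as a covariate (0.09, adjusted p = 0.040, limma) and without OHT replicate 2. A lower Amd1 level was also called in 2 of 22, the covariate included (−0.15, adjusted p = 0.014, limma). Odc1 differed by 0.06 (95% interval −0.12 to 0.25) and Oaz1 by −0.0044 (−0.18 to 0.17), with overlapping libraries.

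The summed level of the 5 myeloid markers in the table was 14.9 to 16.3 RPKM in untreated, 10.2 to 12.5 in OHT, 12.7 to 15.4 in IACS and 9.77 to 10.5 in OHT_IACS libraries, with Mpo at 8.65 to 13.7. The myeloid sum was lower in the OHT groups, as Oaz2 was. The sum of the 3 erythroid markers in the table was lower with IACS-010759, as Oaz2 was, at 41.1 to 41.4 RPKM in untreated and 33.8 to 39.7 in IACS, and at 42.1 to 44.9 in OHT and 36.6 to 37.2 in OHT_IACS libraries. The sum of the 4 T cell markers, with the defining Cd3e at 0 throughout, was 1.78 to 2.15 RPKM in untreated, 0.911 to 1.09 in OHT, 1.58 to 2.34 in IACS and 1.42 to 1.79 in OHT_IACS libraries. The part of these changes in the Oaz2 result was not tested. In bulk RNA, fewer cells that express a gene and less of its RNA per cell cannot be told apart.

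**Figure D3:**
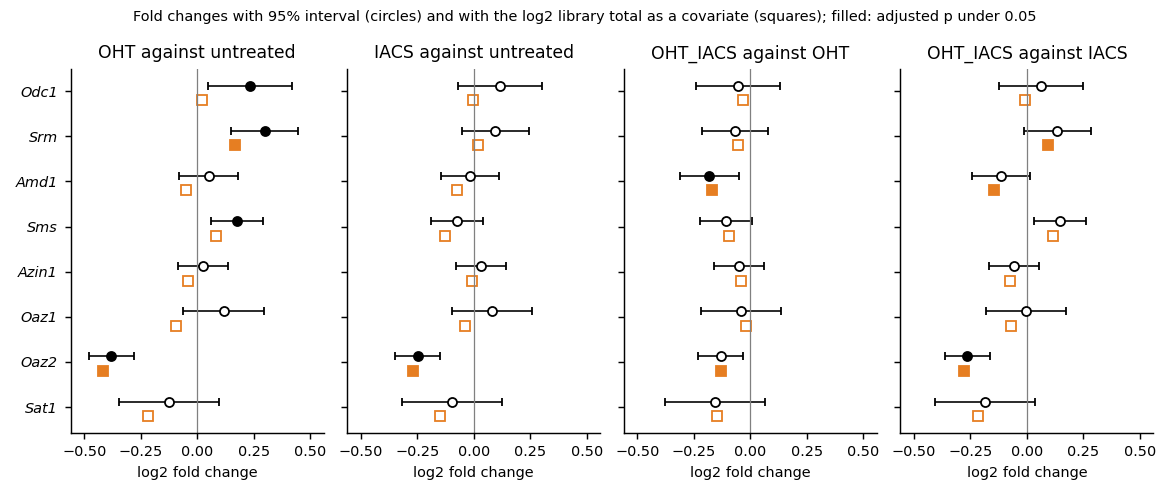
Log2 fold changes of the 8 tested polyamine genes (rows) in 4 comparisons (panels), with circles and 95% intervals for the fit of all 12 libraries and squares for the fit with library totals (log2) as a covariate, filled where the adjusted p is under 0.05. Oaz2 lies left of 0 in every panel by both fits, whereas the Odc1 square for OHT against untreated sits at 0.02.

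Whether IACS-010759 acted differently in OHT-primed and nonprimed cells was tested as an interaction. No polyamine gene was called (limma), beside 0.144% of all genes tested, and 0 of the 8 had an unadjusted p under 0.05. With limma voom on the recovered reads 0 were called and 1 had an unadjusted p under 0.05. The interaction of Oaz2 was 0.12 on the log2 scale (95% interval −0.02 to 0.26, adjusted p = 0.49, limma), and that of Amd1 was −0.16 (−0.35 to 0.02, adjusted p = 0.45, limma). These intervals reach as far as the effects of IACS-010759 themselves, so they do not show that the responses were alike.

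A wider list of 35 genes around the pathway (supply of precursors and of S-adenosylmethionine, salvage of methylthioadenosine, transport, oxidation and hypusination) held 19 genes that were tested and 15 under the filter, and Amd2 was not analysed here. Of the 19, 10 rose and 5 fell with OHT, 3 rose and 5 fell with IACS, 3 rose and 5 fell in OHT_IACS against OHT, and 5 rose and 4 fell in OHT_IACS against IACS (limma). With IACS replicates 1 and 2 as 1 sample, 15, 7, 8 and 6 were called. In the interaction none was called by limma or by limma voom on the recovered reads, with 2 and 3 at an unadjusted p under 0.05. In the fit of all 12 libraries, 36.4%, 15.9%, 23.7% and 26.5% of all genes tested were called in the 4 comparisons and 0.144% in the interaction. The shares by direction are given above. Shares of all genes in the 4 comparisons with IACS replicates 1 and 2 as 1 sample are not given here.

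Slc7a1, which imports arginine, the source of ornithine, rose in each of the 4 comparisons. It stood at 19.0 ± 0.187 RPKM in untreated, 28.3 ± 2.25 in OHT, 28.1 ± 1.24 in IACS (n = 2) and 36.7 ± 0.590 in OHT_IACS cells. The log2 fold changes were 0.55 with OHT and 0.52 with IACS (adjusted p = 7.5e-06 and 5.0e-05, limma). Of 8 listed genes of precursor supply 3 were tested, Slc7a1, Oat and the ornithine carrier Slc25a15. All 3 rose with OHT, beside 18.2% of all genes tested. Oat fell with IACS by 0.17 (adjusted p = 0.041, limma), a call lost with IACS replicates 1 and 2 as 1 sample (adjusted p = 0.092, limma). In OHT_IACS against OHT, Oat fell by 0.24 (adjusted p = 0.0046, limma) and Slc25a15 by 0.26 (adjusted p = 0.048, limma). The Slc25a15 call was lost in 11 of 22 other settings. Arginase (Arg1, Arg2) was under the filter in all libraries.

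Adi1, a dioxygenase of the salvage route that returns methylthioadenosine, the by-product of Srm and Sms, to methionine, rose from 11.7 ± 0.617 to 17.0 ± 1.02 RPKM with OHT. Its log2 fold change was 0.52 with OHT and 0.51 in OHT_IACS against IACS (adjusted p = 1.6e-05 and 2.4e-05, limma), and −0.11 in both responses to IACS-010759. Kyat1, listed under its older symbol Ccbl1, a transaminase of the last step, fell from 1.37 ± 0.0436 to 0.648 ± 0.120 RPKM with OHT, on 14 to 48 reads per library (log2 fold change −1.01, adjusted p = 0.0060, limma). Its fall in OHT_IACS against IACS (−0.74, adjusted p = 0.039, limma) was lost with IACS replicates 1 and 2 as 1 sample (−0.64, adjusted p = 0.11, limma). Of the 6 salvage genes tested, 3 rose and 1 fell with OHT, beside 18.2% of all genes higher and 18.2% lower.

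Slc22a3, an organic cation transporter that can carry polyamines, fell from 2.14 ± 0.302 to 0.763 ± 0.198 RPKM with OHT (log2 fold change −1.41, adjusted p = 3.0e-05, limma). It was higher in OHT_IACS than in OHT (0.61, adjusted p = 0.020, limma), a call lost in 4 of 21 other settings. Those were the fit of only these groups and the fits without OHT replicate 1 (0.43, adjusted p = 0.075, limma) or OHT_IACS replicate 2 or 3 (adjusted p = 0.060 and 0.065, limma), and with OHT replicate 2 alone the difference was 0.32 (adjusted p = 0.31, limma). Slc22a3 was lower in OHT_IACS than in IACS (−0.65, adjusted p = 0.011, limma). Paox, the oxidase that acts on acetylated polyamines made by Sat1, fell from 9.75 ± 0.161 to 7.73 ± 0.672 RPKM with OHT (−0.36, adjusted p = 0.0030, limma), the one oxidation gene on the list. Dhps, the deoxyhypusine synthase that uses spermidine to modify Eif5a, rose with OHT (0.21) and fell with IACS (−0.19), with adjusted p = 0.0032 and 0.012 (limma). Mat2b, a regulatory subunit of the enzyme that makes S-adenosylmethionine, fell in all 4 comparisons, by 0.16 to 0.22 on the log2 scale.

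**Figure D4:**
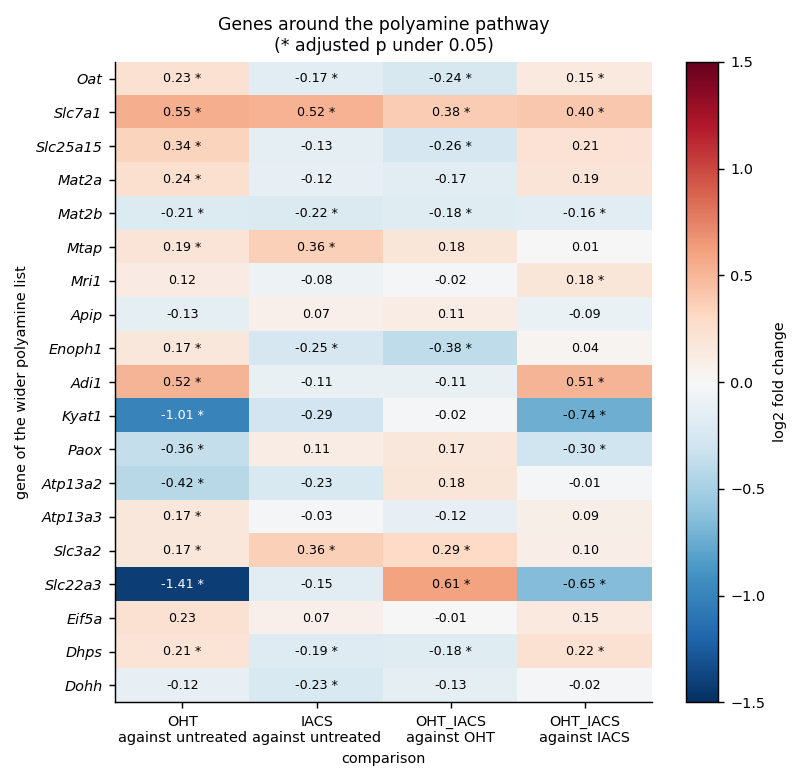
Log2 fold changes (colour and printed value) of the 19 tested genes of the wider polyamine list (rows) in 4 comparisons (columns), with an asterisk where the adjusted p is under 0.05. Slc7a1 is positive and Mat2b negative throughout, and the largest value is the −1.41 of Slc22a3 with OHT.

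Up to 3 genes most like each polyamine gene are named, picked by the Pearson correlation of scaled log2(RPKM + 0.1) over the 12 libraries, as a description, since all points share the libraries, their depth and their treatment. For Odc1 they were Ppp2ca, Pgk1 and Cct2 (r of 0.99 each), genes of 0.749 to 1.02 reads per base, that is, as densely covered as Odc1 itself. For Srm they were Nsun2, Vdac1 and Ivns1abp (0.97 to 0.98), for Sms Tnpo1, Txnl4a and Rrn3 (0.96), and for Amd1 Arpp19 and Bzw1 (0.94 to 0.95). For Oaz1 they were H2afz, H3f3a and Calm2 (0.97 to 0.98), and for Oaz2 Rcn2, Pttg1ip and Zfp606 (0.97). The likeness was weakest for Sat1, with Trim13, Snhg3 and Snora21 (0.89 to 0.90), and Azin1, with Slmo2, Klhl9 and Stag2 (0.86 to 0.91).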

How the data were processed

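Total RNA depleted of ribosomal RNA had been sequenced from 4 groups of 3 libraries. The authors deposited a table of RPKM per gene and library, beside the results of their own DESeq2 comparisons (log2 fold changes and p-values), which were not used. Per the labels, the processing notes name TopHat2 2.0.8, SAMtools, featureCounts 1.4.5-p1, DESeq2 and the build mm9, while the annotation was not given in the sources used here. Sequences and transcript lengths came from RefSeq and GENCODE vM21 on GRCm38, and no coordinate of one build was used with the other.

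Library totals, the lengths of genes and their reads were recovered from the steps between RPKM values, whole within 0.003 reads for 15451 of 15451 genes above 0. RPKM were scaled by the median ratio of each library and tested as log2(RPKM + 0.1) with limma 3.58.1 (mean-variance trend, R 4.3.3) for genes of at least 1 RPKM in at least 3 libraries. All 12 libraries entered 1 fit, with two-sided tests, Benjamini-Hochberg adjustment within each of 5 comparisons and a threshold of 0.05. Fold changes on this scale understate those of low genes. Simulated data of the OHT comparison (9745 genes) gave calls for 97.5% of 200 genes with a true log2 change of 1, and for 12 of 9545 genes with none. The simulation gave all genes and libraries the same extra spread, and the polyamine genes changed by at most 0.38 in size. It therefore does not tell how often changes of that size would be called, or how often calls in the real libraries are false.

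The members, the wider list, the markers and the tests were chosen with earlier results of these data known. Besides the members, the text names genes of the wider list with an adjusted p under 0.05 and a log2 fold change of at least 0.5 in size in any comparison, the 3 genes most like each member, and Myc, Trib3 and Ddit3. Some genes that these rules pick are not reported here. Other genes of the wider list (Oat, Slc25a15, Arg1, Arg2, Paox, Dhps, Mat2b) and the named markers were named after their values were seen. The alternatives were other pseudocounts, filters and scalings, a replicate block, only the compared groups, library totals (log2) as a covariate, limma voom on recovered reads and each library left out. Leaving out OHT replicates 1 and 3, and counting IACS replicates 1 and 2 as 1 sample, were added after seeing the data. Tables and figures were made with pandas 2.3.3, matplotlib 3.10.9 and numpy 2.4.6 in Python 3.11.15. Counts of reads limit the precision, and intervals from limma cover the spread between these libraries, which may be technical.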

Additional observations from a re-analysis of the deposited data

How the results depend on the processing

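The fall of Oaz2 with OHT, with IACS and in OHT_IACS against IACS was called under every alternative run. With a single library left out, the calls of Odc1 and Sms in OHT against untreated were kept in 2 and 9 of 12 fits. That of Amd1 in OHT_IACS against OHT was kept in 2 of 12. With the library total as a covariate the Odc1 and Sms calls were lost and the Amd1 call was not. Depth limited Smox, at most 2 reads. The cause of the changes below was not tested.

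Among the 8 polyamine genes, 4, 1, 1, 1 and 0 were called in the 4 comparisons, in the order of the report, and in the interaction. In OHT against untreated the number was 2 with only the compared groups or with the library total as a covariate, and 1 without OHT replicates 1 and 3. In OHT_IACS against OHT it was 0 without a filter, with only the compared groups, without OHT replicates 1 and 3, and with IACS replicates 1 and 2 as 1 sample, and it was 2 with a filter of 5 RPKM and with the covariate. In OHT_IACS against IACS it was 2 with a filter of 5 RPKM, with the replicate block, with only the compared groups and with voom, and 3 with quantile normalization, with the covariate and without OHT replicates 1 and 3. When single libraries were left out, the numbers ran, in the same order, from 2 to 5, 1 to 1, 0 to 3, 1 to 3 and 0 to 0.

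Of all genes tested, 3546, 1548, 2310, 2585 and 14 were called. With the covariate 2351 were called in OHT against untreated, and without OHT replicates 1 and 3 the numbers were 1887 there and 737 in OHT_IACS against OHT. In the interaction there were 7 without a filter, 5 with RPKM as deposited, 34 with quantile normalization, 7 with the replicate block, 5 with the covariate, 25 with voom and 8 with IACS replicates 1 and 2 as 1 sample. With each library left out the numbers ran from 2651 to 4125, 950 to 1806, 1521 to 2950, 1884 to 2836 and 3 to 130, the last without OHT replicate 2. The deviations of same-numbered libraries correlated at −0.17 to 0.10 over 18 pairs, beside −0.18 to 0.17 over 36 pairs of other numbers. No pairing by number was detected, which does not show that the samples were handled apart. With the replicate block 4, 1, 1, 2 and 0 polyamine genes were called, and 3593, 1486, 2256 and 2532 genes in the first 4 comparisons.

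Signs turned in 41 cases, all of them where neither value was called. In OHT against untreated, the log2 fold changes of Amd1, Azin1 and Oaz1 became −0.078, −0.072 and −0.087 without OHT replicates 1 and 3 and −0.051, −0.040 and −0.094 with the covariate, and quantile normalization gave −0.052 for Amd1 and −0.018 for Azin1. In IACS against untreated the covariate gave Odc1 −0.0030, Azin1 −0.0056 and Oaz1 −0.040, and RPKM as deposited gave Amd1 0.011. In OHT_IACS against OHT, leaving out OHT replicates 1 and 3 gave Odc1 0.15, Srm 0.071, Sms 0.011, Azin1 0.048 and Oaz1 0.16, and quantile normalization gave Oaz1 0.024. In OHT_IACS against IACS, Odc1 became −0.0073 with the covariate and Oaz1 0.0012 with quantile normalization. In the interaction, leaving out OHT replicates 1 and 3 gave Odc1 0.032, Sms 0.088, Sat1 0.042, Azin1 0.016 and Oaz1 0.082, the covariate gave Sms 0.033, Sat1 0.00094 and Oaz1 0.021, and quantile normalization gave Sms 0.0075.

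With single libraries left out, the values that turned ran from −0.0079 to 0.075 for Azin1 in OHT against untreated, and in IACS against untreated from −0.039 to 0.017 for Amd1 and from −0.0011 to 0.065 for Azin1. They ran from −0.15 to 0.011 for Odc1 and −0.14 to 0.052 for Oaz1 in OHT_IACS against OHT, from −0.038 to 0.055 for Oaz1 in OHT_IACS against IACS, and from −0.14 to 0.055 for Sat1 and −0.088 to 0.0059 for Sms in the interaction.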
